A study of Mus musculus with 2 samples.

Results

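A small set of Irf8+ Csf1r+ progenitors was examined in single-cell transcriptomes of LSK cells (lineage-negative, SCA1-positive, cKIT-positive) sorted from E14.5 fetal livers. The cells were chosen by their measured UMIs of a few genes. A cell qualified when it held at least 3 UMIs of Irf8 and at least 1 UMI of Csf1r, at most 1 UMI of Klf1, at most 9 UMIs of C1qa, C1qb and C1qc together, and under 20 UMIs of S100a8 and S100a9 together. A UMI stands for 1 captured RNA molecule. The rule found 197 of 7875 cells, of which 108 came from the WT library and 89 from the KO library.

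The WT library was made from 2 pooled IκBα WT embryos and the KO library from 3 pooled IκBα KO embryos, all of the CD1 strain, an outbred stock. The KO embryos came from a line in which Nfkbia, the gene of IκBα, is disrupted in all tissues, so that any cell of the embryo could differ from WT. Each genotype was represented by a single library, so no test could be run and no p-value is given. The intervals below are exact 95% intervals that cover counting error only, and differences between embryos, litters and libraries cannot be told apart from the genotype. The labels are not uniform, in that the titles speak of LT-HSCs and the cell type of LSK cells. Cells with 5 or more UMIs of Klf1, an erythroid transcription factor, made up 44.6% of the filtered WT and 41.4% of the filtered KO cells, so shares of all cells are not shares of stem and progenitor cells alone.

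IRF8 is a transcription factor that guides progenitors towards monocytes and dendritic cells and away from neutrophils, and CSF1R is the receptor through which CSF1 supports monocytes and macrophages. Monocytes and dendritic cells share early progenitors. Granule genes such as Mpo and Elane, which encode proteases and peroxidase of the neutrophil granules, are switched on in granulocyte-monocyte progenitors and are still found in early monocyte progenitors. IκBα holds NF-κB dimers in the cytoplasm, and NF-κB in turn drives many inflammatory genes in myeloid cells.

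After filtering, the WT library held 3458 cells with a median of 28065 UMIs and the KO library 4417 cells with a median of 19560. The Irf8+ Csf1r+ cells were deeper than the average cell of their library, with a median of 34463.5 UMIs (11004 to 87433) in WT and 24839 (6686 to 72213) in KO. No cell barcode was shared between the WT and KO cells of the set, although 6 were shared among all filtered cells. In the KO set 15 cells carried Y-linked UMIs without Xist, against 0 in WT, so the sexes of the embryos also differed between the libraries. Scrublet, a doublet caller, marked 1 WT and 2 KO cells of the set, which were kept. Of Nfkbia the WT cells held 75 UMIs, found in 43.5% of them, and the KO cells 0. Against a floor of 3 UMIs it was at least 15.1-fold lower in KO.

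The cells were first checked against their label, monocyte and dendritic progenitors. Monocyte genes were abundant in both libraries. Ccr2, the receptor that lets monocytes leave the marrow, reached 91.3 CPM in WT (UMIs per 1000000 UMIs summed over the cells; 82.1 to 101) and, in KO, 83.9 CPM (72.6 to 96.5). This was 5.13 (4.90 to 5.36) and 5.34 (5.05 to 5.63) on the log2 scale above all other cells of the same library. Ms4a6c, a membrane protein gene of monocytes, lay 4.37 and 4.36 above the other cells, and F13a1, which encodes the coagulation factor XIII A chain, 3.61 and 4.05 above them. Klf4, a transcription factor needed for monocytes, lay 4.12 and 4.20 above them. Of the 20 monocyte genes listed, 19 had at least 20 UMIs and 15 of these were 4-fold or more higher than in the other cells in both libraries, beside 2.51% of the 9448 genes of that depth. The rule itself set this contrast, and the counts describe the chosen cells. No UMI of Vcan, another monocyte gene, was counted in either library.

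The genes that define mature dendritic cells were at or near 0. Zbtb46, the transcription factor of conventional dendritic cells, was counted once in each library (1 and 1 UMI). Xcr1 had 0 and 1 UMI, Clec9a 0 and 3, Ciita, the master activator of MHC class II genes, 1 and 2, Itgax 8 and 3, and Cd83 0 and 0. Of the 20 conventional dendritic genes listed, 10 had at least 20 UMIs. Of these, 4 were 4-fold or more higher than in other cells in both libraries, beside 2.51% of the 9448 genes of that depth. Genes of earlier dendritic development were present in part of the cells. Flt3, the receptor for the growth factor of dendritic progenitors, was present in 60.2% of WT and 38.2% of KO cells, and Batf3, a transcription factor of type 1 dendritic cells, in 14.8% and 13.5%. Cd209a, a lectin of monocyte-derived dendritic cells, was found in 20.4% and 6.74%, and Siglech, a receptor of plasmacytoid dendritic cells, in 14 of 108 WT and 4 of 89 KO cells. The given markers Ly86 and Cd74 divided the same way: Ly86, the partner of the receptor CD180, was in 56.5% and 64.0% of cells, whereas Cd74, the MHC class II invariant chain, was in 8.33% and 14.6%. Over the 10 conventional dendritic genes the median log2 difference from the other cells was 2.07 in WT and 3.02 in KO. It was 2.78 and 2.95 over the monocyte genes and 0.10 and 0.11 over all 9448 genes of that depth. The 10 include H2-Aa, H2-Ab1 and H2-Eb1, which had most of their UMIs in 1 cell of each library. The rule itself set this contrast too. The label was thus met in part. Some genes shared with dendritic cells were higher than in other cells, while those that define mature dendritic cells were at or near 0. The cells are called Irf8+ Csf1r+ cells here. The rule caps the C1q genes, which keeps macrophages out by construction. The macrophage list came to 63.6 (WT) and 88.6 CPM (KO), beside 4055 and 7079 CPM in cells with 10 or more C1q UMIs, with Adgre1 at 12 and 16 UMIs and Timd4 at 0 and 1.

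These shares were set against cells that should lack the genes. Among erythroid cells (Klf1 of 5 or more UMIs, median 37460 UMIs in WT and 26687 in KO), Ccr2 was present in 1.69% of WT and 0.765% of KO cells, Ly86 in 1.04% and 0.710%, Flt3 in 4.54% and 4.37%, Batf3 in 0.648% and 0.601%, Cd74 in 1.04% and 0.874%, Siglech in 0.0648% and 0.164%, and Cd209a in 0.130% and 0%. The shares in Irf8+ Csf1r+ cells all lay above these. Mpo was different: it was found in 22.2% and 20.9% of erythroid cells, a background that affects the other granule genes too. The Irf8+ Csf1r+ cells chosen at full depth were also thinned to 8000 UMIs each. Flt3 was then present in 25.9% of WT and 17.0% of KO cells, Cd209a in 8.33% and 2.27% and Siglech in 7.41% and 2.27%. The KO shares were again the lower ones, but those of Cd209a and Siglech rest on few cells. The part of depth in the choice of the cells was not tested here.

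**Figure D1:**
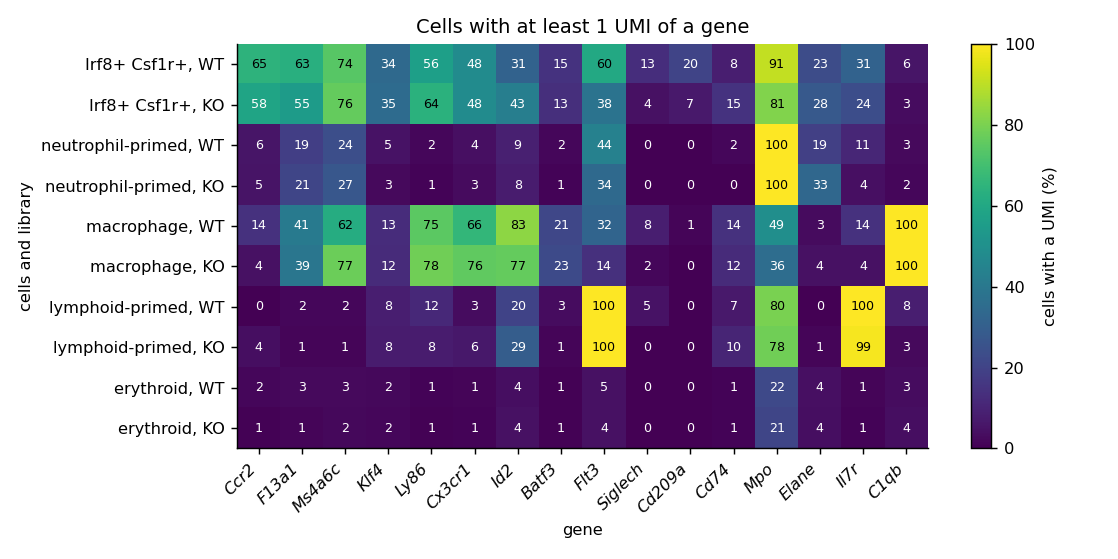
Share of cells with at least 1 UMI of each gene (columns), in percent, for the Irf8+ Csf1r+ cells and 4 other sets of cells (rows) in the WT and KO libraries; colour and number give the same value. Ccr2, Klf4 and Cd209a were found mainly in the Irf8+ Csf1r+ rows, Ly86 and Cx3cr1 were shared with macrophages, and the granule genes, C1qb, Flt3 and Il7r helped to define the neutrophil-primed, macrophage and lymphoid-primed rows.

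The Irf8+ Csf1r+ cells were then placed among the populations most like them. These were neutrophil-primed cells (20 or more UMIs of Elane, Mpo, Prtn3 and Ctsg together, without Irf8 above 2 UMIs), macrophages (10 or more C1q UMIs) and lymphoid-primed cells (Flt3 with Dntt or Il7r). They numbered 316, 71 and 60 in WT and 265, 115 and 78 in KO. Ccr2 was found in 64.8% and 58.4% of Irf8+ Csf1r+ cells, in 14.1% and 4.35% of macrophages, in 5.70% and 5.28% of neutrophil-primed cells and in 0% and 3.85% of lymphoid-primed cells. Klf4 followed the same order, with 34.3% and 34.8%, against 12.7% and 12.2% of macrophages. Cd209a was found in at most 1.41% of any of the other 3 populations. In contrast, Ly86 (74.6% and 78.3%), Cx3cr1 (66.2% and 75.7%) and Cybb (69.0% and 72.2%) were found in more macrophages than Irf8+ Csf1r+ cells. Cx3cr1, the fractalkine receptor, was found in 48.1% and 48.3% of the latter and Cybb, the catalytic chain of the phagocyte oxidase, in 50.9% and 53.9%. Genes that define a population were not read for it. Prtn3, a granule protease, reached 1533 (WT) and 1440 CPM (KO) in Irf8+ Csf1r+ cells and Mpo 1448 and 1333 CPM, beside 88.5 and 82.1 CPM of Prtn3 in erythroid cells. Elane was found in 23.1% and 28.1% of the Irf8+ Csf1r+ cells.

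Lymphoid genes were also seen. Ighm, the immunoglobulin heavy chain constant region, whose germline transcript is common in early progenitors, was present in 76.9% of WT and 71.9% of KO Irf8+ Csf1r+ cells, beside 93.3% and 88.5% of lymphoid-primed and 3.56% and 3.22% of erythroid cells. Il7r, the interleukin-7 receptor, was found in 31.5% and 23.6%. Dntt, one of the genes by which the lymphoid-primed cells were chosen, and Pax5, another gene of the lymphoid list, had 0 UMIs in both libraries. SCA1, by which the cells were sorted, is encoded by Ly6a, and this gene was found in 13.9% and 8.99% of the cells. Kit was found in 70.4% and 47.2%.

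Beyond the listed markers, 134 of 5849 genes with at least 100 UMIs (2.29%) were 4-fold or more higher in the Irf8+ Csf1r+ cells than in the other cells of both libraries, and 26 (0.445%) were 4-fold or more lower. The 25 highest, without the genes of the rule, had log2 differences of at least 3.05 in WT and 3.20 in KO. After Ccr2 came Ifitm6 (5.09 in WT and 5.42 in KO), an interferon-induced membrane protein, and Ms4a4c (5.34 and 5.05), a neighbour of Ms4a6c on chromosome 19 (11404770 to 11427246 and 11469366 to 11482192 on GRCm38, both on the plus strand). Gria3, which encodes a glutamate receptor subunit known from neurons, was 4.33 and 4.22 higher and was found in 66.3% of KO and 81 of 108 WT cells, beside 26.6% and 29.1% of neutrophil-primed and 14.1% and 0.870% of macrophages. Tifab, an inhibitor of TRAF6 signalling, was found in 85.2% and 84.3% of cells, a larger share than any of the other 24. The rest included the innate genes Irf5 (3.48 and 3.32), Casp1 (3.12 and 3.26), Pld4 (3.94 and 3.66) and Ifi211 (4.51 and 3.71), the receptors Gpr183 (3.79 and 3.91), Ccr1 (3.55 and 3.22), Il6ra (3.28 and 3.66), Clec12a (3.20 and 3.47) and Milr1 (3.39 and 3.35), and the adaptor Lat2 (3.71 and 3.24). Rassf4, Gapt, Ppfia4, Sorl1, Fkbp1b, Ly86, F13a1, Klf4 and Cybb completed the 25. The 25 were chosen for being high in both libraries, so their likeness between libraries is no finding.

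Among transcription factors, Spi1, which encodes PU.1, the partner of IRF8 on many myeloid enhancers, was found in all cells of both libraries, at 312 (WT) and 330 CPM (KO). Irf8 itself, used by the rule, had a median of 10 UMIs per cell in WT (3 to 47) and 8 in KO (3 to 27). Nfil3, needed for type 1 dendritic cells, lay 2.96 and 2.88 above the other cells and Zeb2, a repressor of several myeloid programmes, 1.25 and 1.36 above them. Cebpa, the factor of the granulocyte-monocyte step, lay 2.44 and 1.99 above them. Egr1, Jun and Fos, which are induced within minutes of stimulation, lay 1.41, 1.31 and 2.52 above them in WT and 1.60, 1.29 and 2.58 in KO.

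The rule has thresholds, and cells lay on both sides of each. Irf8 was at exactly 3 UMIs in 8 WT and 9 KO cells, and 14 WT and 15 KO cells that met every other condition had 2 UMIs. Csf1r was at 1 UMI in 37 and 32 cells, with a median of 2 UMIs in both libraries and a maximum of 11 and 7, and 45 and 42 cells had the required Irf8 but no Csf1r UMI. Another 12 WT and 14 KO cells were left out for Klf1, 21 and 35 for C1q genes and 3 and 5 for S100a8 and S100a9.

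Within the set, the cells differed widely in granule genes. The UMIs of Elane, Mpo, Prtn3 and Ctsg per 10000 UMIs of a cell ranged from 0 to 212 in WT, with a median of 21.4, and from 0 to 179 in KO, with a median of 17.0. The sum of the monocyte genes Ccr2, F13a1, Ms4a6c and Klf4 ranged from 0 to 23.2 (median 2.50) in WT and from 0 to 17.5 (median 3.38) in KO. Both groups of genes were found in 96 of the 108 WT cells and 77 of the 89 KO cells. Monocyte-gene UMIs outnumbered granule-gene UMIs in 11 WT and 17 KO cells.

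**Figure D2:**
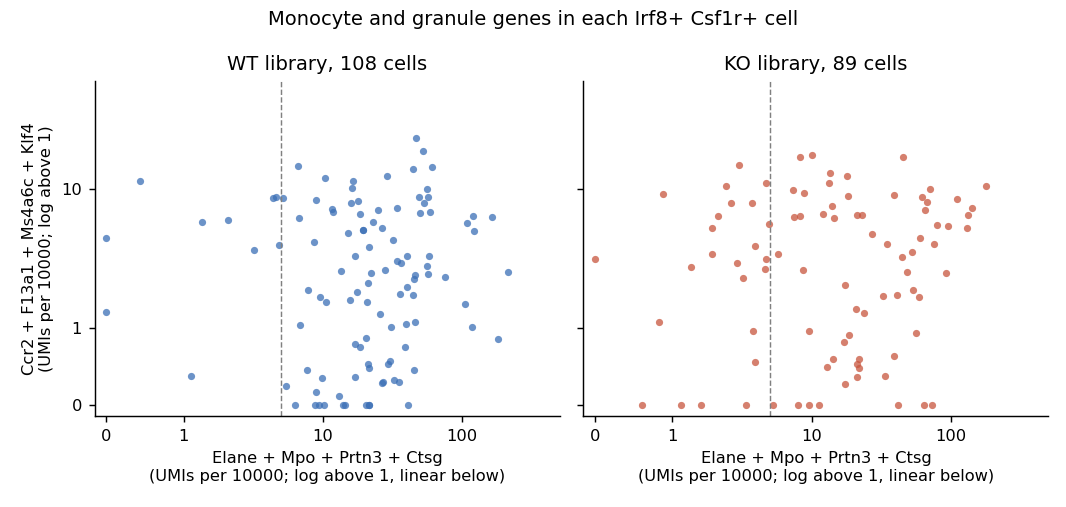
UMIs of 4 granule genes (x axis) and of 4 monocyte genes (y axis) per 10000 UMIs in each Irf8+ Csf1r+ cell, WT on the left and KO on the right; both axes are logarithmic above 1 and linear below, and the dashed line stands at 5 granule UMIs per 10000. Left of the line lie 10 of 108 WT cells and 24 of 89 KO cells.

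The granule-poor cells made up a larger share of the set in the KO library. Under 5 granule UMIs per 10000 were found in 10 of 108 WT cells (9.26%, 4.53 to 16.4) and in 24 of 89 KO cells (27.0%, 18.1 to 37.4), so that KO exceeded WT by 17.7 percentage points (6.34 to 29.2). With a limit of 10 per 10000 the shares were 23.1% and 39.3%, and with a limit of 20 granule UMIs per cell they were 13.9% and 37.1%. The median depth of the cells under 5 per 10000 was 27916.5 UMIs in WT and 20834.5 in KO. Restricted to cells that carried Xist but no Y-linked transcript, it was 17.7 percentage points (5.04 to 31.0), and with WT cells thinned to the KO depth it was 17.3 (5.42 to 28.9). With Csf1r at 2 or more UMIs it was 13.6 (-1.08 to 28.6) and with all cells thinned to 8000 UMIs it was 15.3 (-4.99 to 35.9), so that these intervals included 0. After thinning the rule was applied again, and at 8000 UMIs 34 WT and 29 KO cells met it. The split and its limits were chosen after the values had been seen, and the part of embryo, library and sorting differences in it was not tested.

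Granule-poor and granule-rich cells differed in several other genes. Cells under 20 granule UMIs (15 in WT and 33 in KO) are compared here with the remaining 93 and 56. Id2, a factor that favours dendritic and innate lymphoid fates, was found in 53.3% (26.6 to 78.7) of granule-poor and 28.0% (19.1 to 38.2) of granule-rich cells in WT, and in 81.8% (64.5 to 93.0) and 19.6% (10.2 to 32.4) in KO. A single WT cell held 91 of the 262 WT UMIs of Id2. Batf3 was found in 46.7% and 9.68% in WT and in 24.2% and 7.14% in KO. Cd74 was found in 26.7% and 5.38% in WT and in 36.4% and 1.79% in KO. Ly86 was found in 80.0% and 52.7% in WT and in 84.8% and 51.8% in KO. Klf4, Ccr2, Runx2, a factor of plasmacytoid dendritic cells, and Mpeg1, a pore-forming protein of phagocytes, had higher CPM in granule-poor cells of both libraries. Ccr2 stood at 192 against 80.9 CPM in WT and 148 against 58.2 CPM in KO. Other genes of the plasmacytoid dendritic list were mixed. Siglech was also higher in granule-poor cells of both libraries. Tcf4 was lower in both, at 90.6 against 101 CPM in WT and 87.2 against 89.7 CPM in KO. Bst2 was higher in WT (126 against 107 CPM) and lower in KO (103 against 120 CPM). The granule-poor cells were also the shallower ones, with median depths of 22618 against 36395 UMIs in WT and 19356 against 28011 in KO. The split counts UMIs per cell and thereby favours shallow cells among the granule-poor. The comparison was not repeated at equal depth, and the part of depth in it was not tested.

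Other genes were higher in CPM in granule-rich cells. F13a1 was found in 67.7% of granule-rich and 33.3% of granule-poor cells in WT, at 118 against 22.0 CPM, and in 73.2% and 24.2% in KO, at 172 against 50.3 CPM. Kit was at 53.5 against 16.5 CPM in WT and 53.5 against 20.7 CPM in KO. Cd34 and Myc showed the same order in CPM, with Myc at 105 against 49.4 CPM in WT and 71.9 against 29.6 CPM in KO. The share of cells with Myc was 80.6% of granule-rich and 86.7% of granule-poor cells in WT, and 76.8% and 42.4% in KO. Other genes did not keep 1 order in both libraries. Csf2rb stood at 31.1 CPM in granule-rich and 24.7 CPM in granule-poor WT cells but at 51.7 and 65.0 CPM in KO, Spi1 at 307 and 368 CPM in WT but at 339 and 309 CPM in KO, and Cebpa at 23.8 and 24.7 CPM in WT but at 26.7 and 7.39 CPM in KO. Spi1, Ms4a6c and the proliferation gene Mki67 were found in most cells of both kinds: Mki67 stood at 243 CPM in granule-rich and 266 CPM in granule-poor WT cells, and at 258 and 305 CPM in KO.

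**Figure D3:**
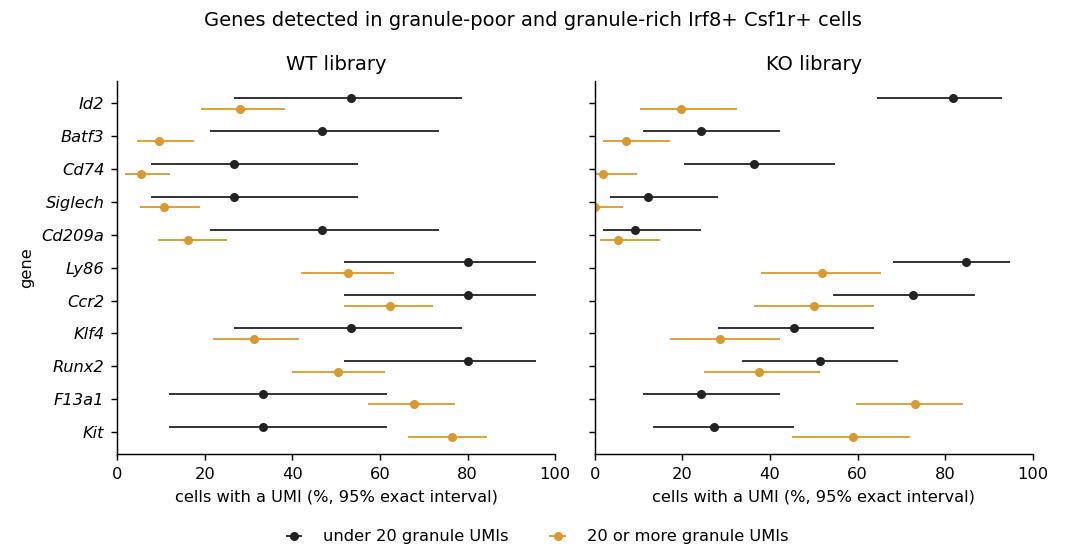
Share of cells with at least 1 UMI of each gene, in percent with exact 95% intervals, for Irf8+ Csf1r+ cells under 20 granule UMIs (black; 15 WT and 33 KO cells) and with 20 or more (orange; 93 WT and 56 KO cells). Id2, Batf3, Cd74 and Ly86 lie to the right in granule-poor cells and F13a1 and Kit in granule-rich cells, in both libraries.

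Single genes also went together from cell to cell. Elane was found in 25 WT cells, and all 25 also held F13a1, beside 51.8% of the cells without Elane. In KO 22 of 25 did, beside 42.2%. Every cell with Batf3 also had Ccr2, 16 of 16 in WT and 12 of 12 in KO, beside 58.7% and 51.9% of the cells without Batf3. Cd209a was accompanied by Ccr2 in 20 of 22 WT and 6 of 6 KO cells. Il7r lay apart from F13a1: 32.4% of WT and 38.1% of KO cells with Il7r had F13a1, beside 77.0% and 60.3% of those without it. Il7r was accompanied by Flt3 in 27 of 34 and 14 of 21 cells. These counts are over cells of 1 library each and depend on the depth of each cell.

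MHC class II genes were nearly confined to 1 cell per library. One WT cell of 38558 UMIs held 21 H2-Aa, 12 H2-Ab1, 7 H2-Eb1 and 39 Cd74 UMIs, and one KO cell of 9627 UMIs held 54, 60, 37 and 95. In the remaining cells H2-Aa and H2-Ab1 did not exceed 3 UMIs per cell and H2-Eb1 was 0. H2-DMa, a chaperone chain that loads peptides onto class II molecules, was in contrast found in 79.6% of WT and 75.3% of KO cells. Its partners H2-DMb1 and H2-DMb2 were found in 29.6% and 16.9% and in 29.6% and 18.0% of cells. Class II genes are driven through a shared X and Y box upstream of the start, on which CIITA acts. The promoters of 4 of these genes are shown because the transcripts of H2-Aa and H2-Eb1 came mostly from a single cell of each library, whereas those of H2-DMb1 and H2-DMb2 were found in many. The sequences are from RefSeq, build GRCm38.p6, 120 bases each, 5′ to 3′ on the strand of the gene. Capitals mark TGATTGG, the inverted CCAAT of the Y box, and GATGATGC, letters that form part of the X box.
H2-Aa, chr17:34287824-34287943, minus strand: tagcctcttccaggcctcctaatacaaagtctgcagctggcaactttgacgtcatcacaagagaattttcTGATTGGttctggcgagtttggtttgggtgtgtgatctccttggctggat
H2-Eb1, chr17:34305747-34305866, plus strand: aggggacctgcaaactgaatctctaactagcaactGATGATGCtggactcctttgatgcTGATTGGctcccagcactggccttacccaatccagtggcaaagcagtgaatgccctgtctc
H2-DMb1, chr17:34153071-34153190, plus strand: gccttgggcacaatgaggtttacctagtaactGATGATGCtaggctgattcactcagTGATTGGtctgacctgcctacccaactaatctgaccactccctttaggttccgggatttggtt
H2-DMb2, chr17:34145129-34145248, plus strand: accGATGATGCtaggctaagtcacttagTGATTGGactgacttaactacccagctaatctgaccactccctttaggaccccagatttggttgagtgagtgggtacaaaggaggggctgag
Both strands of the 250 bases before the start were searched. TGATTGG was found in 7.23% of 32851 promoters, GATGATGC in 0.575%, and both in 14 promoters (0.0426%), which include H2-Eb1, H2-DMb1 and H2-DMb2. H2-Aa held TGATTGG alone, and the 2 start sites of H2-DMa held neither in this window. Other spellings of the X box were not searched, so a promoter without GATGATGC may still hold an X box. A match of letters is a description and not a binding site.

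The share of Irf8+ Csf1r+ cells was next compared between the libraries. Their share was 3.12% in WT (2.57 to 3.76) and 2.01% in KO (1.62 to 2.47). KO minus WT was -1.11 percentage points (-1.86 to -0.389). The rule counts UMIs and WT cells were deeper. When WT counts were thinned to 0.697 of their number, the KO/WT ratio of median depths, 93 WT cells met the rule, 2.69% against 2.01%, and the difference was -0.674 (-1.39 to 0.014). At 8000 UMIs per cell 34 WT and 29 KO cells remained, 1.02% and 0.709%, with a difference of -0.308 (-0.773 to 0.130). Both of these intervals included 0. Only the second setting gives all cells the same depth, and with so few cells left a difference in share was not detectable there. When cells with 20 or more granule UMIs were left out, the direction turned, to 0.311 percentage points (-0.061 to 0.673).

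**Figure D4:**
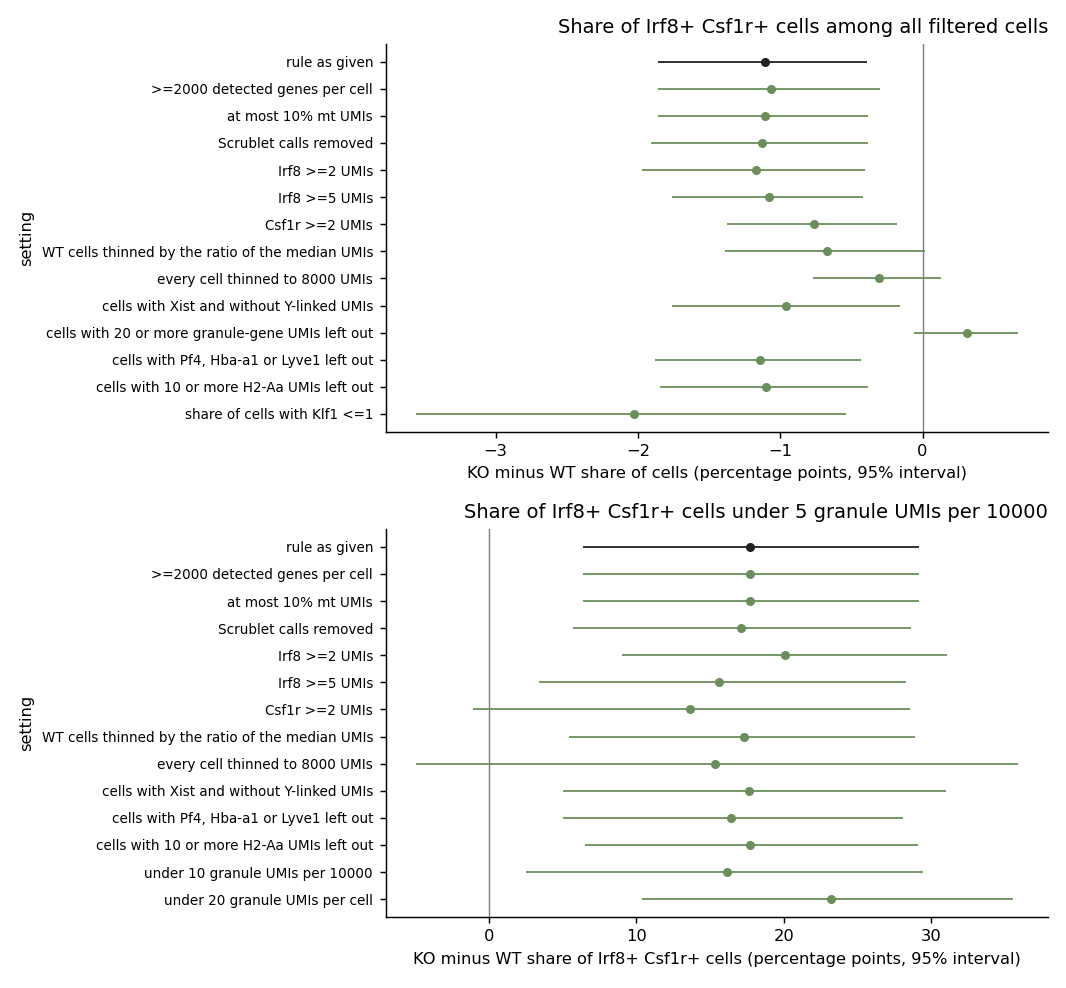
Difference between the KO and WT libraries, in percentage points with 95% intervals, for the share of Irf8+ Csf1r+ cells among all filtered cells (top) and for the share of granule-poor cells among the Irf8+ Csf1r+ cells (bottom), under the rule as given (black) and each other setting (green). The upper values lie below 0 except without granule-rich cells (0.311), and their interval reaches 0 at equal depth; all lower values lie above 0, and 2 intervals reach it.

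Expression within the Irf8+ Csf1r+ cells was then compared between KO and WT. Of 5849 genes with at least 100 UMIs, 82 (1.4%) were 1.5-fold or more higher and 64 (1.09%) 1.5-fold or more lower in KO, and the median log2 KO/WT was 0.015. With a minimum of 20 UMIs, which is used for the lists, the corresponding shares of 9448 genes were 5.81% and 4.86%. Of the 19 monocyte genes, 7 were 1.5-fold or more higher and 2 lower in KO. Summed over the list, the log2 KO/WT was 0.45 (0.40 to 0.51), beside 0.12 in the other cells, but without Lyz2 it was 0.15 (0.09 to 0.22). At 8000 UMIs per cell it turned to -0.061, in the 34 WT and 29 KO cells that met the rule after thinning.

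Lyz2, which encodes the lysozyme of macrophages and granulocytes, had 1325 UMIs in WT and 1851 in KO, or 340 CPM (322 to 359) and 785 CPM (749 to 821). The log2 KO/WT was 1.21 (1.10 to 1.31), beside 0.38 (0.33 to 0.43) in the other cells. The median was 3 UMIs per cell in both libraries. The difference lay in few cells: 7 WT cells of 50 or more UMIs held 53.1% of the WT UMIs, and 12 KO cells held 80.9% of the KO UMIs, with a highest count of 177 and 263. Granule-poor cells held 186 of the WT and 1006 of the KO UMIs of Lyz2.

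Cybb, Csf2rb and Cx3cr1 were less concentrated than Lyz2. In KO, the tenth of cells richest in each gene held 54.4%, 40.5% and 53.8% of its UMIs, beside 70.3% for Lyz2. A single KO cell held 32 of the 180 Cybb UMIs. Cybb had 171 and 180 UMIs and a log2 KO/WT of 0.80 (0.49 to 1.11), and 0.60 without the highest cell of each library. Csf2rb, the shared signalling chain of the receptors for GM-CSF and interleukin-3, had 119 UMIs in 65 WT cells and 131 in 55 KO cells. Its log2 KO/WT was 0.86 (0.49 to 1.23), beside -0.01 (-0.15 to 0.13) in the other cells. Cx3cr1 had 106 UMIs in each library and a log2 KO/WT of 0.72 (0.32 to 1.13), with 0.88 in the other cells. Mpeg1 stood at 0.76 (0.14 to 1.37) and F13a1 at 0.33 (0.12 to 0.54). Ccr2, with 356 and 198 UMIs, stood at -0.12 (-0.38 to 0.13) and Ms4a6c at 0.13 (-0.05 to 0.32). Cd14, the co-receptor for lipopolysaccharide, had 19 UMIs in WT and 2 in KO, a log2 of -2.52 (-5.67 to -0.47).

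Several progenitor genes were lower in the KO cells. Myc, with 389 and 141 UMIs, had a log2 KO/WT of -0.74 (-1.03 to -0.46), beside -0.07 (-0.12 to -0.02) in the other cells. Its median was 2 UMIs per cell in WT and 1 in KO. Myb, needed to keep progenitors immature, stood at -0.42 (-0.67 to -0.18), Bcl11a, a factor of lymphoid and plasmacytoid dendritic development, at -0.39 (-0.61 to -0.16), and Cd34 at -0.33 (-0.48 to -0.19). Cd27 stood at -0.76 (-1.26 to -0.28) and Il7r at -0.72 (-1.31 to -0.17), whereas both lay close to 0 in the other cells (0.08 and 0.09). Summed over the stem and multipotent list the log2 KO/WT was -0.27 (-0.37 to -0.16), beside -0.19 in the other cells. Of its 11 genes with at least 20 UMIs, 1 was 1.5-fold or more higher and 1, Cd27, lower. Of 26 myeloid transcription factors, 0 were 1.5-fold or more higher and 3 lower in KO, Myc and Gfi1 among them. Over all 9448 genes of at least 20 UMIs the shares were 5.81% and 4.86%. Gfi1, a repressor of monocyte genes in neutrophil progenitors, had 31 UMIs in WT and 8 in KO (-1.23, -2.56 to -0.08). Spi1 stood at 0.08 (-0.05 to 0.21). Irf8 stood at 0.03, a value that the rule itself limits, since each cell had to hold Irf8. Several of these genes also differed between granule-rich and granule-poor cells, whose shares differed between the libraries, and the part of this mixture in the KO/WT values was not tested.

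Single dendritic genes differed in direction. The conventional dendritic list stood at 0.27 (0.20 to 0.34), beside 0.005 in the other cells, at 0.13 without the 2 cells rich in H2-Aa and at -0.17 without granule-rich cells. Flt3, with 150 and 69 UMIs, had a log2 KO/WT of -0.40 (-0.83 to 0.03), Cd209a, with 47 and 12 UMIs, -1.24 (-2.29 to -0.31), Siglech, with 30 and 10, -0.86 (-2.06 to 0.21), and Batf3, with 42 and 28, 0.14 (-0.60 to 0.86). Of 10 conventional dendritic genes with at least 20 UMIs, 4 were 1.5-fold or more higher and 1 lower, beside 5.81% and 4.86% of all 9448 genes. Of the 4, H2-Aa, H2-Ab1 and H2-Eb1 had most of their UMIs in 1 cell of each library, and Naaa, an acid amidase, had 6 and 15 UMIs. Id2 stood at -0.15 (-0.45 to 0.15), and at 0.26 (-0.08 to 0.61) without the highest cell of each library. Cd74, with 53 and 124 UMIs, had a log2 KO/WT of 1.95 (1.48 to 2.44). Of these UMIs, 39 in WT and 95 in KO were held by the same cells as H2-Aa. Summed over the MHC class II list the log2 KO/WT was 0.57 (0.41 to 0.74) and became -0.022 without these 2 cells. The plasmacytoid dendritic list stood at 0.05 (-0.08 to 0.18), with 1 of 7 genes 1.5-fold higher and 1 lower.

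**Figure D5:**
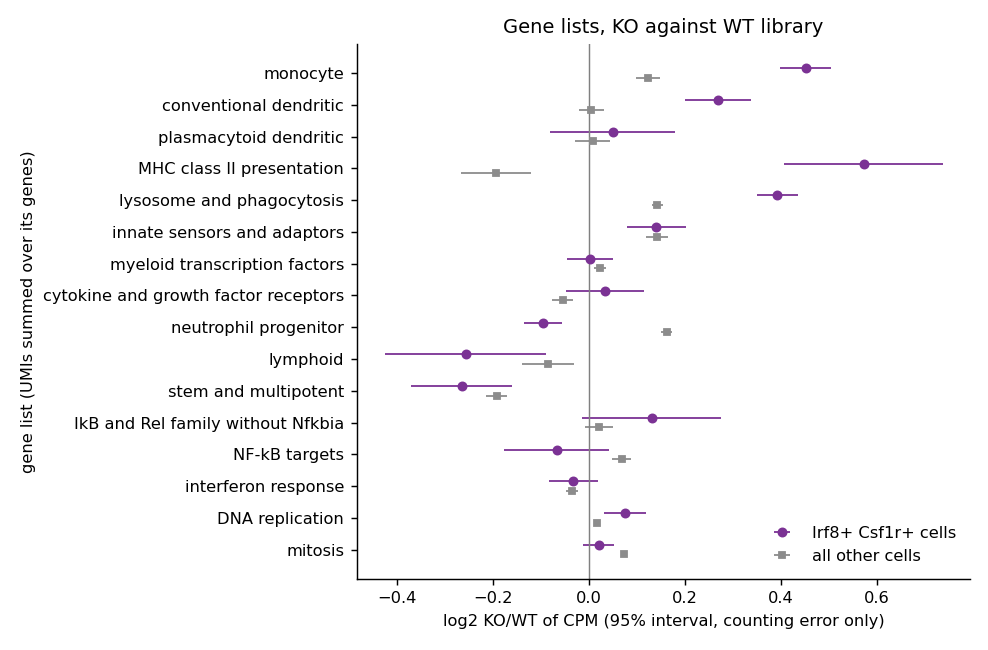
Log2 KO/WT of the CPM summed over each gene list (rows) with 95% intervals for counting error, in the Irf8+ Csf1r+ cells (purple) and in all other cells (grey). The monocyte, conventional dendritic, MHC class II and lysosome lists lie to the right of the other cells. Much of the first 3 values lies in few cells, and the lysosome value falls from 0.39 to 0.22 without Lyz2. The neutrophil progenitor list lies to the left (-0.096 against 0.162) and includes S100a8 and S100a9, which the rule caps in the Irf8+ Csf1r+ cells only.

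The genes of the NF-κB pathway were examined because IκBα inhibits it. Of the 14 genes of the IκB and Rel family other than Nfkbia with at least 20 UMIs, 3 were 1.5-fold or more higher and 0 lower, and the sum stood at 0.13 (-0.01 to 0.28). The 3 were Nfkbie (14 and 14 UMIs), Nfkbiz (11 and 12) and Nfkb2 (25 and 24), and the interval of each included 0. Rel, the subunit favoured by lymphoid and myeloid cells, had 103 and 82 UMIs (0.40, -0.04 to 0.83), Rela 90 and 59 (0.12, -0.38 to 0.61) and Nfkb1 202 and 146 (0.26, -0.06 to 0.57). Nfkbib, a second cytoplasmic inhibitor, had 158 and 68 UMIs (-0.49, -0.92 to -0.07). Of 21 listed target genes, 2 were 1.5-fold or more higher and 3 lower in KO. Over all 9448 genes of at least 20 UMIs these shares were 5.81% and 4.86%. The sum stood at -0.067 (-0.18 to 0.04). The 2 lower genes whose intervals left out 0 were chemokines. Ccl3 had 159 UMIs in 41 WT cells and 56 in 28 KO cells, a log2 of -0.78 (-1.25 to -0.33), whereas it stood at 0.36 (0.13 to 0.60) in the other cells. Ccl4 had 46 and 11 UMIs (-1.34, -2.44 to -0.37), with -0.63 in the other cells. Tnf, with 16 and 13 UMIs, Icam1, with 55 and 31, and Birc3, with 31 and 26, had intervals that included 0. At these counts, changes of a smaller size in single target genes were not detectable.

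The remaining lists were compared in the same way. The interferon response list stood at -0.032 (-0.08 to 0.02), with Ifi204 at 0.86 (0.21 to 1.52) and Ifi203 at -0.49 (-0.68 to -0.31), both of which lay alike in the other cells (0.87 and -0.40). The lysosome and phagocytosis list stood at 0.39 (0.35 to 0.44) and at 0.22 without Lyz2, beside 0.14 in the other cells. Of its 23 genes 3 were 1.5-fold or more higher, Lyz2, Cybb and Lgmn, and 0 lower, beside 5.81% and 4.86% of all 9448 genes. The cathepsin genes Ctsc (0.34, 0.14 to 0.54) and Ctsz (0.39, 0.25 to 0.52) and the oxidase gene Ncf4 (0.48, 0.24 to 0.71) had intervals above 0. The innate sensors and adaptors stood at 0.14, in the other cells also at 0.14, the cytokine receptors at 0.03 (-0.05 to 0.11), DNA replication at 0.075 (0.03 to 0.12) and mitosis at 0.020 (-0.01 to 0.05). The neutrophil progenitor list stood at -0.096 (-0.14 to -0.06), with Mpo at -0.12 (-0.18 to -0.06) and Prtn3 at -0.09 (-0.15 to -0.03). That list includes S100a8 and S100a9, which the rule caps. The lymphoid list stood at -0.26 (-0.43 to -0.09), the chemokine and adhesion receptors at -0.080 (-0.19 to 0.03), the myeloid transcription factors at 0.002 (-0.05 to 0.05) and the macrophage list at 0.48, beside 0.60 in the other cells. The retinoic acid receptors stood at 0.12 (-0.18 to 0.43).

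By size, the 8 highest and 8 lowest genes included several that mark single cells of other lineages. Pf4, the platelet factor 4 gene, was counted 43 times in WT and 1357 times in KO, and 2 KO cells held 741 and 593 of these. Cpa3, a mast cell protease, was counted at 121 and 14 UMIs, and 2 WT cells held 77 and 29. One WT and one KO cell held 26 and 37 UMIs of Lyve1, an endothelial and macrophage receptor, and one KO cell held 275 UMIs of Hba-a1. The megakaryocyte list accordingly stood at 4.56 (4.27 to 4.86) and the erythroid list at 0.83 (0.72 to 0.94). Per cell, the megakaryocyte list ranged from 0 to 6.47 UMIs per 10000 in WT and from 0 to 186 in KO, with medians of 0 and 0.250. Its marker Itga2b was counted 0 times in WT and 28 times in KO. The mast cell and basophil list stood at -2.11 and the endothelial list at 0.39 (0.06 to 0.72). The liver gene Afp (47 and 63 UMIs, 1.15, 0.58 to 1.73) was also higher in the other KO cells (0.61), and the hepatocyte list stood at 1.21 in the Irf8+ Csf1r+ and 0.60 in the other cells. The part of free RNA or doublets in these counts was not tested.

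Most of the other genes named by size had the same sign in all other cells. Stmn1, which encodes a protein that destabilises microtubules, had 3903 and 1090 UMIs and a log2 KO/WT of -1.12 (-1.21 to -1.02), beside -1.05 in the other cells. Lbp stood at -1.29 beside -1.04, AI506816 at -1.22 beside -1.03, Gstp1 at -0.98 beside -0.71, Lgmn at 1.03 beside 0.84, Fosb at 1.05 beside 0.70 and Hpgd, which inactivates prostaglandins, at 2.24 (1.59 to 2.93) beside 0.86. A few stood apart from the other cells. Stfa1, a cysteine protease inhibitor of myeloid cells, had 389 UMIs in 33 WT cells and 87 in 25 KO cells, a log2 of -1.44 (-1.79 to -1.10) beside 0.04 in the other cells, and 2 WT cells held 31.9% of its WT UMIs. Stfa1 belongs to a family of near-identical genes, and how reads that match several of them entered the counts was not examined. Trbc2, a T cell receptor constant gene, had 160 and 38 UMIs (-1.35, -1.90 to -0.83) beside -0.25, and Phykpl 79 and 24 (-0.99, -1.72 to -0.32) beside -0.10. Stfa1 and Trbc2 turned to 0.69 and 1.05 when granule-rich cells were left out.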

How the data were processed

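Fetal liver LSK cells were profiled with the 10x 3′ v3 chemistry, in 1 WT and 1 KO library. Per the labels and the submitters' processing notes, the authors processed the reads with Cell Ranger 6.0.0 against mm10 and deposited UMI counts per gene and cell, not normalized. The annotation release was not given in the sources used here. Gene positions were taken from GENCODE vM21 (32158 of 32285 gene IDs found).

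Barcodes were kept from 1000 detected genes upwards, if mitochondrial UMIs did not exceed 20% (382 of 3840 WT and 511 of 4928 KO barcodes removed), and the stated UMI rule was applied. UMIs were summed over cells and scaled to CPM. CPM had exact Poisson intervals, shares Clopper-Pearson intervals and log2 KO/WT exact conditional intervals, all at 95% and for counting error only. The total per library was 109122324 and 100029143 UMIs. A count of 0 was set to a floor of 3 UMIs in a fold. Genes needed 100 UMIs in both libraries together, or 20 within a list. Named were Nfkbia, the genes of the rule, list genes of 20 UMIs, the 25 genes highest above the other cells, and the 8 highest and 8 lowest KO/WT genes whose interval left out 0, without mitochondrial, haemoglobin and sex-linked genes. Other genes were named after their values were seen. A few genes that the rule names are not reported here.

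The rule, the lists and the tests were chosen with earlier results of these data known, and the lists were written from general knowledge. Scrublet, in scanpy 1.11.5 with 5% doublets expected, marked doublets, which were kept. Intervals were tested on simulated data. Alternatives changed the cell filters, the UMI rule, depth, scaling, gene minimum and fold. Computation used Python 3.11.15, numpy 2.4.6, scipy 1.17.1 and pandas 2.3.3.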

Additional observations from a re-analysis of the deposited data

Results flagged for a closer look

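Of 208 named genes and 26 lists compared between the Irf8+ Csf1r+ cells and all other cells, 5 genes and 2 lists had KO/WT intervals on opposite sides of 0. With 1 library per genotype the difference was not tested for any of them. The neutrophil progenitor list had a log2 KO/WT of -0.096 in the Irf8+ Csf1r+ cells and 0.162 in the other cells. This list includes S100a8 and S100a9, which the rule caps in the Irf8+ Csf1r+ cells but not in the other cells, so the rule limits the contrast. Within it, Elane stood at -0.24 beside 0.27, Mpo at -0.12 beside 0.11 and Prtn3 at -0.090 beside 0.066. One WT cell held 173 of the 523 WT UMIs of Elane, and without the highest cell of each library Elane stood at -0.04 (-0.29 to 0.21). The MHC class II presentation list stood at 0.57 beside -0.19, and at -0.022 without the 1 cell of each library that held 10 or more UMIs of H2-Aa. Ccl3 stood at -0.78 beside 0.36. Ly6c2, a surface antigen gene of inflammatory monocytes, stood at 0.77 beside -0.31, with 69 UMIs in 19 WT cells and 71 in 14 KO cells.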

How the results depend on the processing

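No paired analysis was possible because only 1 WT and 1 KO library exist in the data, and leaving out a library was not possible either. The share of Irf8+ Csf1r+ cells was lower in KO under 12 of 13 alternatives, and Nfkbia under 14 of 14. The share of granule-poor cells, a result added after seeing the data, was 13.6 to 23.2 percentage points higher in KO under 13 of 13. List values below are log2 KO/WT. After thinning the rule was applied again, so the cells were not the same, and at 8000 UMIs 34 WT and 29 KO cells met it. With every cell thinned to 8000 UMIs the share differed by -0.308 percentage points, and the monocyte list stood at -0.061, conventional dendritic 1.33, plasmacytoid dendritic 0.27, MHC class II 2.59, innate sensors -0.092, lysosome 0.33, IkB and Rel family -0.31, NF-kB targets 0.28, interferon response -0.22, DNA replication 0.19 and mitosis -0.16, with 12 genes higher and 15 lower in KO, and 15 genes 4-fold above the other cells. Without cells of 20 or more granule UMIs the share differed by 0.311 points, Nfkbia stood at -2.89, monocyte 0.63, conventional dendritic -0.17, MHC class II 0.040, innate sensors 0.020, lysosome 0.27, NF-kB targets -0.32, interferon response -0.38, DNA replication 0.23, mitosis 0.092, Stfa1 0.69 and Trbc2 1.05, with 53 genes higher, 22 lower and 61 above the other cells. At 2 or more Irf8 UMIs the monocyte list stood at 0.60, conventional dendritic 0.34, innate sensors 0.22, lysosome 0.54 and interferon response 0.026. At 5 or more they were 0.35 (monocyte), 0.35 (conventional dendritic) and 0.33 (lysosome), with Pf4 at -0.16. At 2 or more Csf1r UMIs the monocyte list stood at 0.63, plasmacytoid dendritic -0.15, lysosome 0.51, DNA replication 0.15 and mitosis -0.11. When WT counts were thinned to the median depth of KO, monocyte stood at 0.38, conventional dendritic 0.17, innate sensors 0.042 and lysosome 0.28. In cells with Xist and no Y-linked UMIs, monocyte stood at 0.54, conventional dendritic 0.46, MHC class II 1.05 and lysosome 0.47. As means of CPM per cell, conventional dendritic stood at 0.57, MHC class II 1.33 and lysosome 0.45. Among alternatives chosen after seeing the data, leaving out cells with Pf4, Hba-a1 or Lyve1 gave 0.51 for the monocyte list, leaving out the H2-Aa cells gave 0.13 for conventional dendritic and -0.022 for MHC class II, and counting only cells with at most 1 Klf1 UMI gave a share difference of -2.03 points. Genes 1.5-fold higher and lower in KO numbered 209 and 184 at a minimum of 50 UMIs, 24 and 20 at 200, and 1790 and 1117 with none, where 377 stood 4-fold above the other cells. At 2-fold, 12 and 6 passed between genotypes and 442 against the other cells. The cause of these shifts was not tested. Depth limits single genes, since most had few UMIs per cell.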

Other observations

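Cells with at least 3 UMIs of Irf8 that lacked only Csf1r numbered 45 in WT and 42 in KO, with median depths of 29051 and 22435 UMIs. Granule genes were abundant in both sets. Prtn3 stood at 1415 (WT) and 1591 CPM (KO), beside 1533 and 1440 CPM, and Mpo was found in 80.0% and 71.4% of them. Elane stood at 242 and 151 CPM, beside 134 and 114 CPM. Monocyte genes were lower than in the Irf8+ Csf1r+ cells. These values carry no test. Ccr2 stood at 18.3 and 23.6 CPM, beside 91.3 and 83.9 CPM, Ms4a6c at 44.2 and 35.4 CPM, beside 151 and 166 CPM, and F13a1 at 38.9 and 68.9 CPM, beside 109 and 137 CPM. Ly86 was found in 13.3% and 31.0% of them, beside 56.5% and 64.0%.

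Of the lymphoid and dendritic receptors, Flt3 stood at 35.8 and 44.3 CPM in the cells without Csf1r, beside 38.5 and 29.2 CPM, and Il7r at 28.2 and 43.3 CPM, beside 25.9 and 15.7 CPM. Ighm was found in 53.3% and 52.4% of them. Siglech had 6 UMIs in WT and 13 in KO, in 4.44% and 9.52% of cells.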
